A study of Homo sapiens with 10 samples.

Results

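The gene group described here is the feedback core and the effector targets of the transcription factor p53, 34 genes chosen by symbol and found as 34 of the 61587 rows of the count table. They were measured by bulk RNA-seq of poly-A RNA from RPTEC/TERT1 cells, human renal proximal tubular epithelial cells immortalised with telomerase. In the irradiated group 5 replicate samples received 10 Gy of caesium-137 gamma irradiation and 5 control samples were mock-irradiated, all without further treatment, and RNA was taken on day 7. Both groups are cultures of a single immortalised line, although the cell type label calls the cells primary, and the label of the cell line runs from RPTEC/TERT1 to RPTEC/TERT10 over the 10 samples while the design text names only RPTEC/TERT1. The study used these cells as a model of senescent tubular epithelium, so the question here is how far the p53 programme was raised a week after exposure and which of its arms moved.

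The p53 protein is a transcription factor that is stabilised after DNA damage and then switches on genes for cell cycle arrest, DNA repair, metabolism and cell death. It also switches on its own inhibitors, chiefly the ubiquitin ligase MDM2 and the phosphatase PPM1D, so that its activity is held in a negative feedback loop. In the kidney, p53 in tubular cells is known for its part in acute injury and in the lasting arrest of cells that fail to repair. It binds DNA as a tetramer at a response element made of a pair of 10-base half-sites.

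A match to this response element was sought within 2000 bases on either side of the transcription start of each gene (GENCODE canonical transcripts, GRCh38), with adjacent half-sites, at most 2 mismatches in the 20 bases and none at the core C and G of a half-site. The consensus reads the same on both strands. Such a match lay near 10 of the 34 genes (29.4%), and near 393 of 13736 protein-coding genes tested, members included (2.86%). With at most 1 mismatch the numbers were 5 of 34 (14.7%) and 56 of 13736 (0.408%). The members were chosen as targets of p53, so their larger share follows from the choice and is not a test. The matches below include those of EDA2R and CCNG1, the tested members with a match that changed most and least, and of untested SPATA18. Each runs 5′ to 3′ on the strand of the gene, the capitals mark the 20-base match, and the flanks are 5 bases each. That of ZMAT3 has 0 mismatches, those of EDA2R, GADD45A, DDB2 and CCNG1 have 1, and those of MDM2 and SPATA18 have 2.
ZMAT3, chr3:179070183-179070212, minus strand, intron 1: tcataAAACAAGTCCAGACATGCCTaggca
EDA2R, chrX:66638708-66638737, minus strand, intron 1: tctgaGAACATGCCTGGACGTGTCCaacaa
GADD45A, chr1:67686770-67686799, plus strand, intron 3: gtacaGAACATGTCTAAGCATGCTGgggac
DDB2, chr11:47214964-47214993, plus strand, across the transcription start: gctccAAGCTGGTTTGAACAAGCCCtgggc
MDM2, chr12:68808918-68808947, plus strand, intron 1: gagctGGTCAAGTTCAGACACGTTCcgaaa
CCNG1, chr5:163437921-163437950, plus strand, intron 1: tgtgaGCACAAGCCCAGGCTAGTCCgaggc
SPATA18, chr4:52051952-52051981, plus strand, intron 1: aggaaGGACATGTGTGTACATGCCCttgtc

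The other matches lay upstream of AEN and BTG2, in intron 1 of CMBL, and at another place in intron 1 of EDA2R. Binding of p53 was not measured here, and a match is only a description of the sequence.

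**Figure D1:**
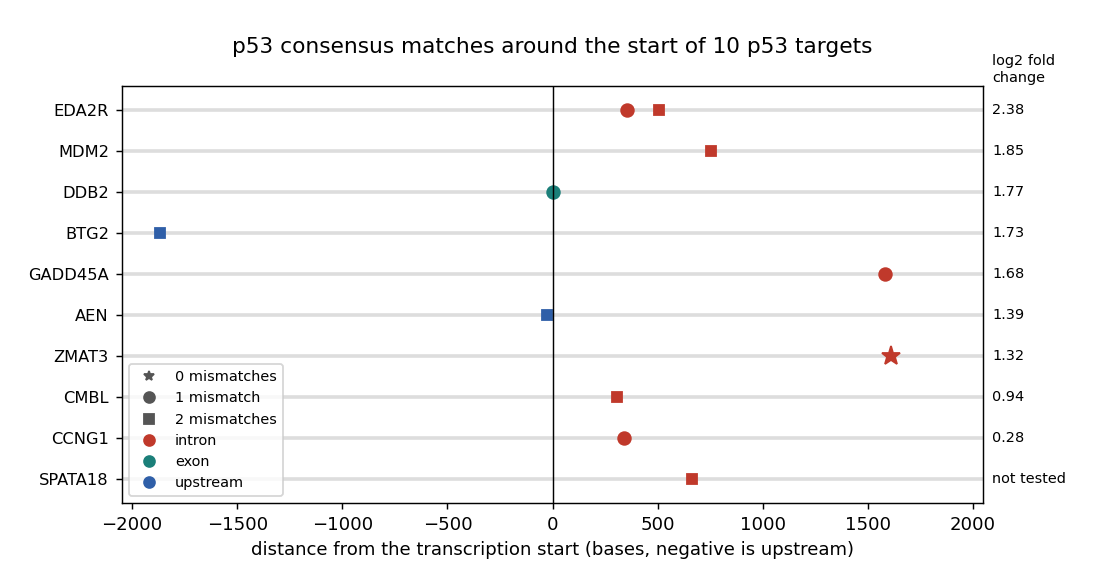
Distance in bases of each p53 consensus match from the transcription start (x axis) for the 10 genes that have one within 2000 bases, ordered by log2 fold change, which stands at the right. Marker shape gives the mismatches and colour the annotation. EDA2R, MDM2 and DDB2 stand at the top with log2 fold changes of 2.38, 1.85 and 1.77, CCNG1 at 0.28 near the foot, and SPATA18 was not tested.

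Counts on genes summed to between 66269311 and 131555873 per sample. Expression is given below as CPM, the counts of a gene scaled to the TMM-normalised total of its library. Irradiated and control samples were tested against each other by the quasi-likelihood method of edgeR on genes with at least 200 counts over all samples, with replicate number as a block and Benjamini-Hochberg adjustment over 19006 genes. Of 17 markers of proximal tubule and epithelium, 13 reached 200 counts, and their list summed to between 3310 and 3929 CPM in control and between 3600 and 5270 CPM in irradiated samples. HNF4A, LRP2, SLC34A1 and SLC22A6, which mark the differentiated proximal tubule, stayed under 200 counts. Lists for other cell types were low but higher after irradiation: 7 fibroblast markers summed to 15.9 to 23.5 CPM in control and 28.6 to 40.1 in irradiated samples, 5 endothelial markers to 1.32 to 2.45 and 4.18 to 6.09, and 7 leukocyte markers to 0.571 to 0.881 and 1.87 to 2.59, with no marker at 0 in every sample. The largest rises within these lists were those of COL1A1 (mean 18.85 to 32.15 CPM), CDH5 (0.596 to 3.31 CPM) and ITGAM (0.0436 to 1.24 CPM). The means of COL1A2, PDGFRB, VWF, KDR and CD68, all at low levels, were lower in irradiated samples. A higher sum is thus not a rise of every marker in a list. The part of these markers in the results below was not tested. In bulk RNA, fewer cells with a transcript and less of it per cell cannot be told apart. The labels do not say that replicates are separate cultures, so p-values measure the spread between these samples.

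Most of the p53 programme was higher in irradiated RPTECs. Of the 33 members tested, 29 were higher at an adjusted p under 0.05 (87.9%, against 23.9% of all genes tested), 0 were lower (against 22.7%) and 4 were not called. In either direction 46.6% of all genes were called. The median log2 fold change was 0.89, against -0.01 over all genes, and the range was -0.07 for MDM4 to 2.38 for EDA2R. More than 2-fold higher were 14 members (42.4%, against 5.26% of all genes), and 0 were more than 2-fold lower (against 4.06%). The members not called were MDM4, CCNG1, POLH and ANKRA2. When libraries were scaled by their totals alone, 38.0% of all genes called in either direction were higher in place of 51.4%, the median over all genes moved to -0.09, and 28 members were still called higher. Under that setting and under 8 of the other 11 alternatives the call of PPM1D was lost, while the remaining 28 members called higher passed under all 12. The edgeR adjusted p of these 28 lay between 4.53e-06 for DDB2 and 0.00735 for SESN2.

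All 5 irradiated samples lay above all 5 control samples for 25 of the 33 members (75.8%, against 14.6% of genes tested), and for 0 members did they lie below (against 12%). Without control replicate 3, which stood apart as described further on, the count was 27, against 18.2% of genes. That setting was not planned, and leaving out a control can only keep or raise such a count. In 28 members the irradiated sample was higher in all 5 replicate pairs, and over all members in 157 of 165 pair comparisons. The share of all genes with such pairs was not counted, so these numbers have no background to compare with.

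**Figure D2:**
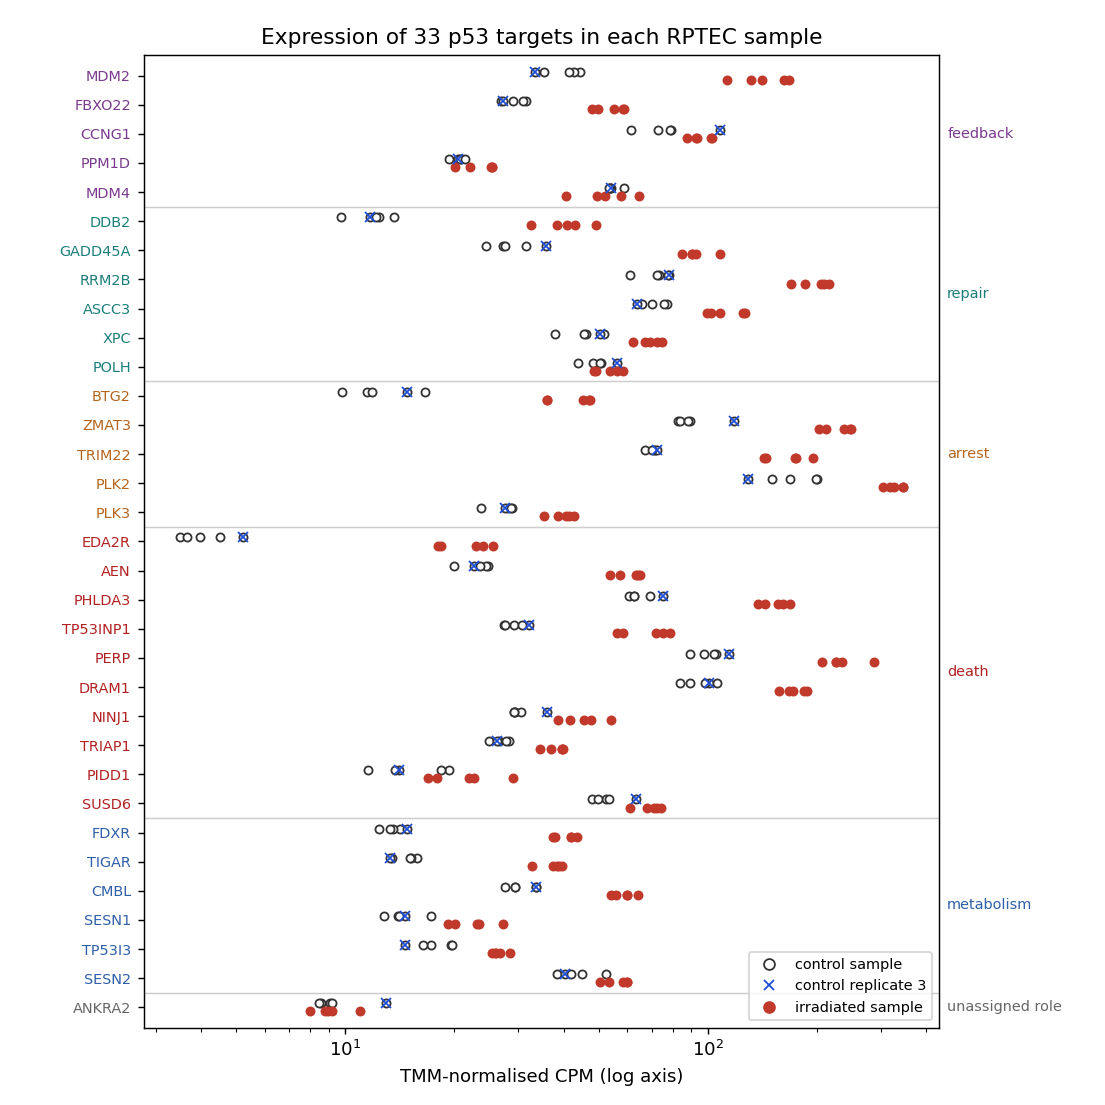
TMM-normalised CPM (log x axis) of the 33 members tested in each of the 5 control samples (open circles) and 5 irradiated samples (filled circles), grouped by role and ordered by log2 fold change. The groups are parted for 25 members and overlap for 8, and control replicate 3 (crosses) is the highest control for ZMAT3 at 118 and CCNG1 at 107.8 CPM.

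In the feedback arm, the p53-degrading ligase gene MDM2 rose while its partner MDM4 did not pass the test. MDM2, on chromosome 12 of GRCh38 from 68808177 to 68845544, stood at 35.3, 44.5, 33.4, 42.7 and 41.4 CPM in control replicates 1 to 5 and at 131.5, 140.7, 113.1, 162.0 and 167.4 CPM in irradiated replicates 1 to 5. Every irradiated sample was more than 2-fold above every control sample. The log2 fold change was 1.85 (standard error 0.06, a fold of 3.61, edgeR adjusted p = 6.52e-06). Of the MDM2 exon length, 11.1% lies under exons of the opposite strand, and its level can be affected where such reads are shared or lost.

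MDM4 encodes the related protein that masks the activation domain of p53. It stood at 53.8, 58.7, 54.1, 53.7 and 53.3 CPM in control and at 49.3, 64.8, 40.6, 51.9 and 57.7 CPM in irradiated replicates 1 to 5, so that irradiated samples were found on both sides of the controls. Its log2 fold change was -0.07 (standard error 0.08, edgeR adjusted p = 0.532), and 0.03 without replicate 3. Within pairs the log2 ratio of MDM2 exceeded that of MDM4 by 1.92 ± 0.24 (SD, n = 5 pairs, range 1.52 to 2.18), with an exact paired permutation p of 0.0625 and 0.0625 after adjustment over 3 pairs of related genes, the smallest value 5 pairs can give, so that this test cannot pass 0.05. Per kilobase of exon, MDM2 and MDM4 had like levels in control samples (4.75 and 4.97 CPM per kb), and after irradiation 17.2 and 4.80 CPM per kb. The length counts all annotated exons of a gene merged, not the transcripts expressed, so levels of different genes compare only roughly.

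PPM1D, the phosphatase WIP1 that dephosphorylates p53 and its activating kinases, was called by a small margin. Its levels were 20.9, 19.4, 20.5, 20.7 and 21.4 CPM in control and 22.1, 25.4, 20.1, 25.2 and 25.4 CPM in irradiated replicates 1 to 5. Irradiated replicate 3 lay within the controls and the others above them. The log2 fold change was 0.20 (standard error 0.07, edgeR adjusted p = 0.0475), and the adjusted p ran from 0.0118 to 0.188 over 12 alternatives, 9 of which did not call it.

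CCNG1 encodes cyclin G1, which recruits a phosphatase that activates MDM2. It stood at 72.9, 61.5, 107.8, 79.2 and 78.5 CPM in control and at 87.6, 93.2, 93.0, 102.1 and 102.7 CPM in irradiated replicates 1 to 5, and control replicate 3 was above every irradiated sample while the other controls were below them all. The log2 fold change was 0.28 (standard error 0.10, edgeR adjusted p = 0.057), and 0.41 without replicate 3 (edgeR adjusted p = 0.0013). FBXO22, a substrate receptor of a ubiquitin ligase that acts on methylated p53, rose from 29.1 ± 2.1 to 54.0 ± 4.9 CPM (mean ± SD of 5 samples), and exons of NRG4 on the opposite strand cover 16.2% of its exon length. The feedback arm thus ran from MDM2 at 1.85 to MDM4 at -0.07 on the log2 scale. Of its 5 genes, 3 were called higher (60%, against 23.9% of all genes).

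Of the 6 DNA repair genes, 5 rose (83.3%, against 23.9% of all genes called higher). DDB2 encodes the damage sensor that opens nucleotide excision repair of ultraviolet lesions. It stood at 9.76, 13.6, 11.7, 12.4 and 12.1 CPM in control and at 32.6, 49.2, 38.3, 43.1 and 40.8 CPM in irradiated replicates 1 to 5. The groups were far apart and the pairs close to each other, with log2 ratios between 1.71 and 1.85. The fitted log2 fold change was 1.77 (standard error 0.05, edgeR adjusted p = 4.53e-06).

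GADD45A, a stress-induced protein with parts in repair and arrest at the G2 to M transition, stood at 27.2, 31.5, 35.7, 24.4 and 27.6 CPM in control and at 84.7, 90.3, 108, 90.7 and 92.5 CPM in irradiated replicates 1 to 5. Replicate 3 was the highest of its group both with and without irradiation. Its log2 fold change was 1.68 (standard error 0.06). RRM2B, the p53-inducible small subunit of ribonucleotide reductase that supplies nucleotides outside S phase, rose from 72.6 ± 6.9 to 197.1 ± 19.1 CPM (mean ± SD of 5 samples), a log2 fold change of 1.44.

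ASCC3, a helicase that clears alkylation damage and collided ribosomes, rose from 70.5 ± 5.7 to 112.2 ± 12.9 CPM, and XPC, the lesion recognition factor of global nucleotide excision repair, from 46.3 ± 5.4 to 69.1 ± 4.8 CPM (mean ± SD of 5 samples). Their log2 fold changes were 0.67 and 0.58, both under 2-fold. Of the XPC exon length, 24.6% lies under opposite-strand exons. POLH, which encodes the translesion polymerase eta, was at 43.8, 50.7, 56.0, 48.3 and 50.3 CPM in control and at 48.4, 58.3, 49.3, 56.0 and 53.7 CPM in irradiated replicates 1 to 5. These values overlapped, with a change of 0.09 on the log2 scale (standard error 0.06, edgeR adjusted p = 0.258), and 0.17 without replicate 3 (edgeR adjusted p = 0.0116).

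**Figure D3:**
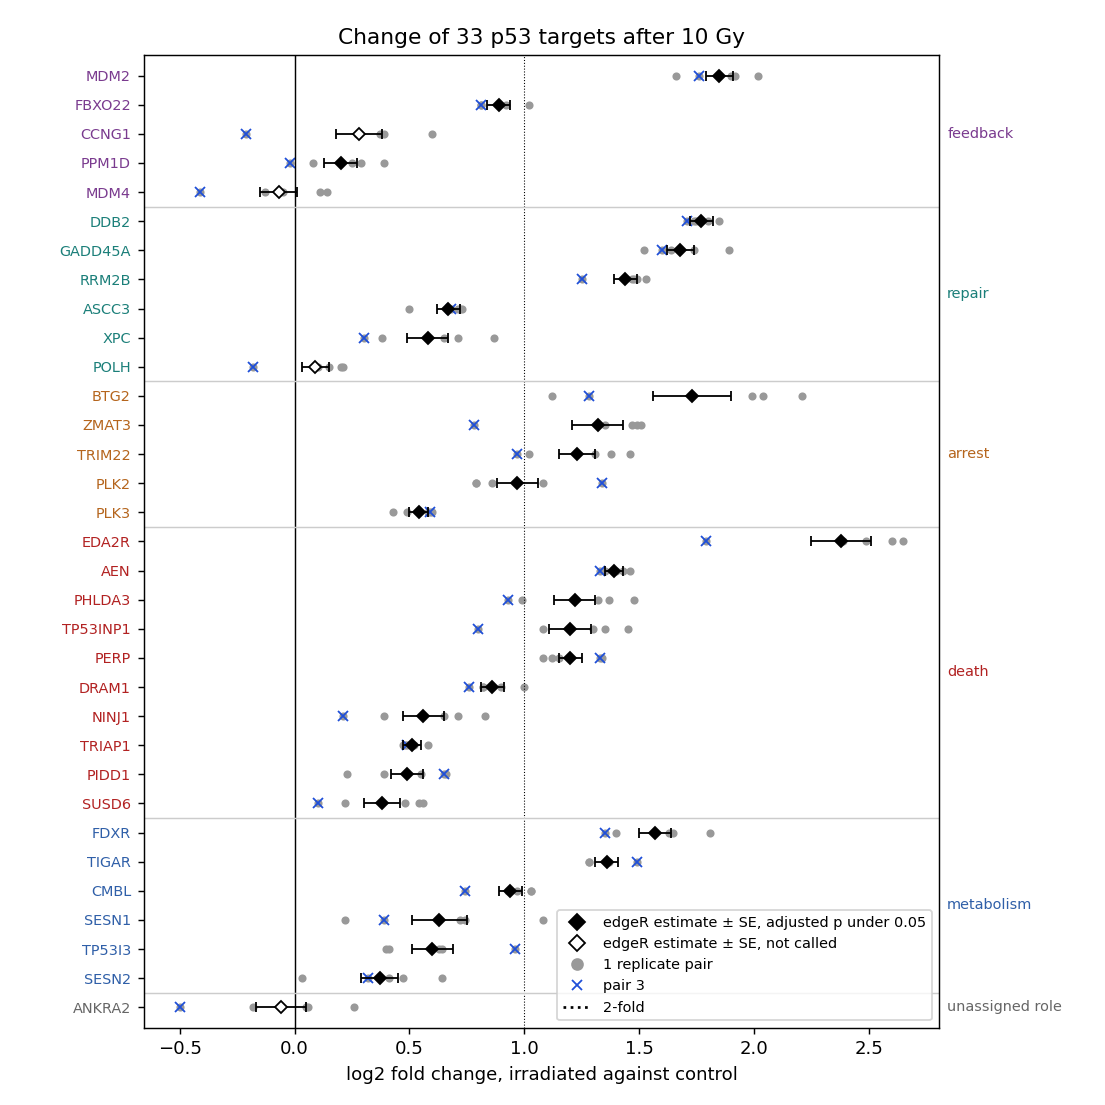
Log2 fold change of irradiated against control samples (x axis) for the 33 members tested: the edgeR estimate with its standard error (diamonds, filled where the adjusted p was under 0.05) and the ratio within each of the 5 replicate pairs (grey circles, pair 3 as crosses). Pair 3 lies at the left end for 19 members, among them ZMAT3 (0.78) and EDA2R (1.79), and at the right end for PLK2 (1.34) and TP53I3 (0.96).

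All 5 members grouped as arrest genes rose, against 23.9% of all genes called higher. BTG2, an antiproliferative protein that binds mRNA deadenylases, stood at 16.6, 9.82, 14.8, 11.5 and 11.8 CPM in control and at 36.0, 45.3, 35.9, 47.0 and 47.2 CPM in irradiated replicates 1 to 5. Replicates 1 and 3 had the highest control and the lowest irradiated values, and their log2 ratios were 1.12 and 1.28 where the other pairs gave 1.99 to 2.21. The fitted log2 fold change was 1.73, with the largest standard error of the group, 0.17 (edgeR adjusted p = 0.000186).

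ZMAT3, a zinc finger protein that binds RNA and affects splicing, stood at 82.9, 89.3, 118, 83.7 and 88.1 CPM in control and at 211.6, 248, 202.9, 237.6 and 246.9 CPM in irradiated replicates 1 to 5. Control replicate 3 was the highest and irradiated replicate 3 the lowest of its group, and the log2 fold change was 1.32 (standard error 0.11). TRIM22, an interferon- and p53-inducible ligase with antiviral activity, rose from 70.4 ± 2.0 to 166.3 ± 22.4 CPM (mean ± SD of 5 samples), a log2 fold change of 1.23.

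The polo-like kinase genes PLK2 and PLK3, which unlike PLK1 are stress-induced, both rose. PLK2 stood at 150.2, 168.4, 129.1, 200.4 and 199.0 CPM in control and at 318, 305, 327, 346 and 345 CPM in irradiated replicates 1 to 5, and it had the highest level per kilobase of all members in both groups (36.5 and 70.6 CPM per kb). PLK3 stood at 28.9, 28.2, 27.5, 28.7 and 23.7 CPM in control and at 40.7, 42.8, 41.4, 38.7 and 35.4 CPM in irradiated replicates 1 to 5. Both were parted from their controls, with log2 fold changes of 0.97 (standard error 0.09) and 0.54 (standard error 0.04). The ratio of PLK2 exceeded that of PLK3 in every pair, by 0.43 ± 0.23 (SD, n = 5 pairs), with an exact paired permutation p of 0.0625, the smallest possible.

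All 10 members grouped as death genes rose (against 23.9% of all genes), 5 of them more than 2-fold (50%, against 5.26%). EDA2R encodes the ectodysplasin A2 receptor of the TNF receptor family and lies on chromosome X from 66595637 to 66639298. It stood at 3.498, 3.66, 5.23, 3.97 and 4.53 CPM in control and at 18.3, 22.9, 18.1, 24.1 and 25.5 CPM in irradiated replicates 1 to 5. It had the lowest control level per kilobase of the members tested, 1.16 CPM per kb, and the largest change, a log2 fold change of 2.38 (standard error 0.13, a fold of 5.22, edgeR adjusted p = 2.26e-05). The irradiated values of replicates 1 and 3 were the lowest, and the smallest log2 ratio was that of pair 3, at 1.79.

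AEN, a nuclease that degrades DNA in apoptosis, gave a large and even response. Its levels were 20, 24.8, 22.7, 24.4 and 23.5 CPM in control and 53.8, 63.4, 57.1, 64.3 and 64.8 CPM in irradiated replicates 1 to 5, and its log2 ratios ran from 1.33 to 1.46. PHLDA3, a PH domain protein that restrains AKT, rose from 66.02 ± 6.15 to 153.4 ± 12.8 CPM, with 18.4% of its exons shared with another gene on its strand. TP53INP1, a nuclear and autophagic partner of p53 signalling, rose from 29.4 ± 2.0 to 68.0 ± 10.3 CPM (mean ± SD of 5 samples). PERP, a tetraspan membrane protein of desmosomes and p53-dependent death, rose from 102.1 ± 9.3 to 236.1 ± 30.5 CPM. The log2 fold change was 1.39 for AEN and 1.22 for PHLDA3, and PERP and TP53INP1 rose 2.31-fold and 2.30-fold.

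The other death genes changed less than 2-fold. DRAM1, a lysosomal membrane protein of autophagy, rose from 95.6 ± 9.1 to 173.4 ± 12.5 CPM, a log2 fold change of 0.86. NINJ1, a surface protein that ruptures the membrane of dying cells, rose from 30.9 ± 2.9 to 45.5 ± 5.9 CPM, and TRIAP1, a small mitochondrial protein that opposes apoptosis, from 26.8 ± 1.4 to 38.1 ± 2.4 CPM (mean ± SD of 5 samples). These 3 genes had parted groups. PIDD1, the scaffold of the caspase-2 activating PIDDosome, stood at 19.3, 18.4, 14.1, 13.7 and 11.6 CPM in control and at 22.6, 29.0, 22.0, 17.9 and 16.9 CPM in irradiated replicates 1 to 5. Its groups overlapped, replicates 1 and 2 being the highest of each. The irradiated sample was higher in every pair and the log2 fold change was 0.49 (standard error 0.07, edgeR adjusted p = 0.00138). SUSD6, a membrane protein also known as DRAGO, stood at 52.3, 53.5, 63.4, 48.0 and 49.8 CPM in control and at 61.1, 74.5, 67.9, 70.9 and 72.5 CPM in irradiated replicates 1 to 5. Control replicate 3 alone reached into the irradiated range, and the log2 fold change was 0.38 (standard error 0.08).

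Among the 7 metabolic and redox genes, 6 were tested and all 6 rose, against 23.9% of all genes called higher. FDXR, the mitochondrial ferredoxin reductase of iron-sulfur cluster and steroid synthesis, stood at 14.2, 13.5, 14.8, 13.3 and 12.4 CPM in control and at 37.4, 41.9, 37.8, 41.8 and 43.5 CPM in irradiated replicates 1 to 5, and the log2 fold change was 1.57 (standard error 0.07). TIGAR, a fructose bisphosphatase that diverts glucose to the pentose phosphate pathway, stood at 15.8, 13.5, 13.3, 15.2 and 15.1 CPM in control and at 38.3, 32.8, 37.3, 39.5 and 38.8 CPM in irradiated replicates 1 to 5, and the log2 fold change was 1.36 (standard error 0.05). Both more than doubled in every pair. Of the TIGAR exon length, 18.1% is shared with another gene on its strand.

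CMBL, a cysteine hydrolase, rose from 30.7 ± 2.8 to 58.8 ± 3.9 CPM, a log2 fold change of 0.94, and TP53I3, a quinone oxidoreductase, from 17.5 ± 2.2 to 26.5 ± 1.2 CPM (mean ± SD of 5 samples), a log2 fold change of 0.60. The sestrins restrain mTORC1 signalling and oxidative stress. SESN1 stood at 17.2, 12.8, 14.7, 13.98 and 14.1 CPM in control and at 20.04, 27.2, 19.2, 23.4 and 23.1 CPM in irradiated replicates 1 to 5. SESN2 stood at 52.3, 38.4, 40.3, 42.0 and 45.1 CPM in control and at 53.3, 59.8, 50.5, 58.2 and 59.7 CPM in irradiated replicates 1 to 5. For both sestrins control replicate 1 was the highest control, and for SESN2 it overlapped the irradiated samples.

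The log2 fold changes of SESN1 and SESN2 were 0.63 (standard error 0.12) and 0.37 (standard error 0.08). SESN1 exceeded SESN2 in every pair, by 0.26 ± 0.14 (SD, n = 5 pairs, range 0.07 to 0.44, exact paired permutation p = 0.0625). Per kilobase SESN2 was the more abundant, at 12.6 and 16.3 CPM per kb in control and irradiated samples against 2 and 3.10. SPATA18, a mitochondrial quality control gene, held 17 counts in all. Control replicates 1 to 5 had 0, 0, 3, 3 and 0 counts and irradiated replicates 2, 1, 5, 3 and 0, so that a response was not detectable at this depth in a gene with a consensus match in its first intron. ANKRA2, an ankyrin repeat protein to which no role was assigned, stood at 9.09, 9.19, 12.99, 8.60 and 8.45 CPM in control and at 8.01, 10.98, 9.18, 8.97 and 8.77 CPM in irradiated replicates 1 to 5, and the log2 fold change was -0.06 (standard error 0.11, edgeR adjusted p = 0.674).

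Members with and without a consensus match near the start were called higher in like shares, 8 of 9 (88.9%) and 21 of 24 (87.5%), while the sizes of the changes differed, as a description without a test. The 9 of them tested had a median log2 fold change of 1.68 (0.28 to 2.38), and 7 of the 9 were more than 2-fold higher. The 24 tested members without one had a median of 0.62 (-0.07 to 1.57), and 7 of the 24 were more than 2-fold higher. Among other protein-coding genes, 32.6% of 384 with a match and 26.4% of 13319 without one were called higher. More than 2-fold higher were 10.4% and 4.97%, and the medians were 0.05 and -0.01. Among the members with a match and a test, CCNG1 had the smallest log2 fold change, 0.28, and was the member not called.

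Per kilobase of merged annotated exons, the order of the members shifted. In control samples PLK2, CCNG1, PERP, DRAM1 and PHLDA3 were the most abundant, between 36.5 and 20.4 CPM per kb. In irradiated samples PLK2 at 70.6, PERP at 56.2, GADD45A at 48.4, PHLDA3 at 47.3 and DRAM1 at 44 CPM per kb led, and CCNG1 at 30.9 was in position 7. MDM2 moved from position 22 to position 11 of 33. The 33 members together summed to between 1394 and 1536 CPM in control and between 2657 and 3041 CPM in irradiated samples.

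The samples of a group differed in the level of the members. Control replicate 3 had the highest mean over the members, 5.112 log2 CPM (5.010 to 5.032 for the other controls). It was the highest control for 14 of the 33, and above the mean of the other controls for 20. It was above the mean of the other controls by 0.57 for CCNG1, 0.56 for ANKRA2, 0.46 for ZMAT3 and 0.43 for EDA2R on the log2 scale, but below it for PLK2 (-0.46), TP53I3 (-0.31) and MDM2 (-0.29). Pair 3 had the smallest log2 ratio of the 5 pairs for 19 of 33 members. Among irradiated samples, replicates 1 and 3 had the lowest mean levels (5.852 and 5.881 log2 CPM, against 6.034 to 6.050). Replicate 1 was below the mean of the others for 30 of 33 members and replicate 3 for 26. Such counts were not made over all genes, so a difference in these genes cannot be told from a general one.

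Pair 3 had the smallest median log2 ratio over the members, 0.78, and pair 1 the largest, 0.97, with 0.82 to 0.90 in the other pairs. Cell cycle genes differed least in pairs 1 and 3, an order unlike that of these medians over all tested members. For the 29 members called higher, the median log2 ratio was smallest in pair 3, at 0.81, and next smallest in pair 1. It ran from 1.02 to 1.08 in the other pairs, so the place of pair 1 depended on which members were taken. Over 30 cell cycle genes, control replicates 1 and 3 had means of 3.986 and 3.920 log2 CPM, below the 5.249 to 5.315 of the other controls and above the 2.920 to 3.431 of irradiated samples. The median log2 ratio of these genes was -0.75 and -0.64 in pairs 1 and 3, and -2.25 to -2.65 in the other pairs. The part of this difference between cultures in the member results was not tested. Without replicate 3, 31 members were called higher, CCNG1 and POLH being the additions.

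**Figure D4:**
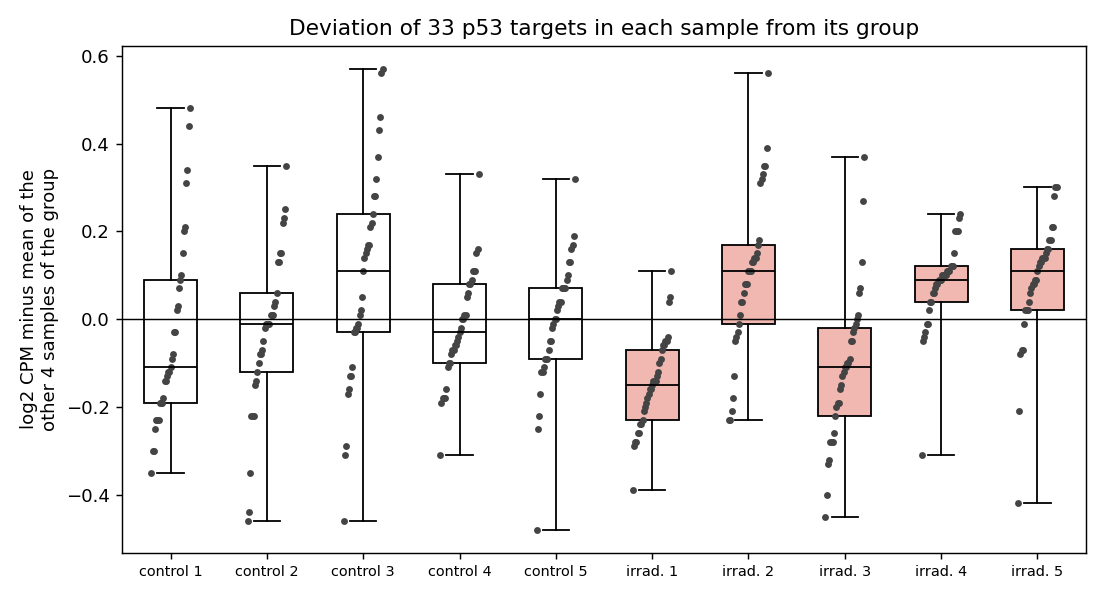
Difference in log2 CPM between each sample and the mean of the other 4 samples of its group (y axis) for the 33 members tested, control samples in white and irradiated samples in red. Boxes show quartiles and medians, whiskers the lowest and highest members, and points single genes. The medians are highest in control replicate 3 (0.11) among controls and lowest in irradiated replicates 1 (-0.15) and 3 (-0.11) among irradiated samples.

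Most other target genes of the pathway were higher too. Of 37 further p53 targets, 35 were tested, and 25 were higher (71.4%, against 23.9% of all genes). Called lower were 2 (5.71%, against 22.7%), 8 were not called, and the median log2 fold change was 0.61. These genes too were chosen as targets of p53, with earlier results of these data known, so their larger share is not a test. The largest rises were those of CDKN1A (log2 fold change 2.92), which encodes the arrest protein p21, of the death receptor gene FAS (2.13) and of the decoy receptor gene TNFRSF10C (1.89), part of whose exon length is shared with other genes on its strand. The lower genes were PLTP, a phospholipid transfer protein, from 0.965 ± 0.751 to 0.429 ± 0.221 CPM, and ABHD4, a lipid hydrolase, from 51.0 ± 7.9 to 36.3 ± 2.4 CPM (mean ± SD of 5 samples). CDKN1A was at 80.9, 80.3, 207.6, 66.7 and 74.3 CPM in control and at 584.4, 768.4, 699.8, 730.3 and 709.4 CPM in irradiated replicates 1 to 5, so that control replicate 3 stood apart and the groups did not overlap.

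Of 17 regulators that act on p53 and were tested, 2 were higher (11.8%, against 23.9% of all genes), 4 were lower (23.5%, against 22.7%) and 11 were not called, with a median log2 fold change of -0.11. The genes higher were CDKN2A (0.84), whose locus encodes the MDM2 inhibitor ARF besides p16, and the p53 ligase RCHY1 (0.24). The genes lower were TP73 (-1.32), a p53 relative, the acetyltransferases CREBBP (-0.30) and EP300 (-0.16) and the damage adaptor TP53BP1 (-0.24). TP73 stood at 0.881, 2.94, 0.459, 1.70 and 2.38 CPM in control replicates 1 to 5 and at 0.4945 to 0.735 CPM in irradiated samples. Its groups overlapped, and its log2 ratio in pair 3 was 0.23. The p53 protein was not assayed in these data.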

How the data were processed

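Poly-A RNA of 5 irradiated and 5 control RPTEC samples was sequenced. The labels name the TruSeq RNA kit v2 and the methods a NEBNext Ultra II kit. The authors trimmed adapters with Trim-Galore (Cutadapt 2.8), aligned reads to GRCh38 with STAR 2.7.9a and deposited its counts per gene, without normalisation. The annotation release and the use of strand in counting are not given in the sources used here. Identifiers were matched to symbols for 61369 of 61587 rows, and all sample columns were used. Groups and replicate numbers came from the sample titles.

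Counts were fitted in R 4.3.3 with edgeR 4.0.16 (TMM, at least 200 counts over the samples, replicate block, quasi-likelihood test, threshold 0.05), after tests on simulated data. Standard errors are the log2 fold change over the square root of F. Same-numbered samples of the groups had deviations that correlated (correlations over genes 0.22 to 0.51, against -0.35 to 0.32 for samples with different numbers, a range that holds the 0.22 of replicate 2), and the study's model used replicate number too. Log2 CPM used a prior count of 0.5. Members, lists and tests were chosen with earlier results of these data known. All members are named, and of other lists CDKN1A, up to 3 largest rises and falls, and each target called lower. A gene of the list of regulators is not reported here. EP300 was added after its values were seen, so that every regulator called lower is named. Alternatives were DESeq2 1.42.0, limma-voom (limma 3.58.1), other scalings and filters, no block and each replicate left out. Counting intervals are not given, since replicate spread exceeds counting error for the members tested. That need not hold for genes with few counts, such as SPATA18 and several cell type markers. Positions and exon lengths came from GENCODE annotation of GRCh38 and sequences from that genome. Figures used matplotlib 3.10.9.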

Additional observations from a re-analysis of the deposited data

Results flagged for a closer look

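Single samples stood far from the other 4 of their group (Dixon's criterion for 5 samples) in 9 of 76 groups of values, where chance gives 3.8. Of these, 6 concern control replicate 3: ZMAT3 at 118 CPM (others 82.9 to 89.3), NINJ1 at 36.0 CPM (others 29.2 to 30.5), ANKRA2 at 12.99 CPM (others 8.45 to 9.19), CDKN1A at 207.6 CPM (others 66.7 to 80.9), and the means of the members at 5.112 log2 CPM (others 5.010 to 5.032) and of the other p53 targets at 5.283 log2 CPM (others 4.969 to 5.059). MDM4 was high in control replicate 2 at 58.7 CPM (others 53.3 to 54.1), and PLK3 was low in control replicate 5 at 23.7 CPM (others 27.5 to 28.9). The mean of the other p53 targets was low in irradiated replicate 1 at 5.687 log2 CPM (others 5.779 to 5.787). The groups of values share samples and genes, so they are not independent and 9 against 3.8 is not a test. The cause of these differences was not tested.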

How the results depend on the processing

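Over 396 alternatives of single members (12 for each of 33), 381 kept direction and call, 9 lost a call (all PPM1D), 4 gained one (CCNG1 under DESeq2, with all genes that had a count, and without replicate 3, and POLH without replicate 3), and 2 changed sign without being called (MDM4 at 0.03 and ANKRA2 at 0.05, both without replicate 3, and from -0.11 and -0.13 upwards with each replicate left out). The cause was not tested. Without the replicate block 28 members were higher, and of the other p53 targets 22 were higher and 1 lower. Among all genes with a count, 1613 genes in all were more than 2-fold higher in place of 999, out of 44263 tested, and of the regulators 1 was higher in place of 2. Leaving out each replicate in turn, 28 to 31 members were higher and 14 to 15 more than 2-fold higher. The differences within pairs then ran from 1.85 to 2.02 for MDM2 and MDM4, 0.21 to 0.30 for SESN1 and SESN2 and 0.35 to 0.49 for PLK2 and PLK3. With 5 pairs no exact paired test can go below 0.0625.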
